A study of Homo sapiens with 12 samples.

Results

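The 5 genes described here, MICA, MICB, ULBP1, ULBP2 and ULBP3, encode cell surface ligands of NKG2D, an activating receptor of natural killer cells and cytotoxic T cells. They were taken as the probes of the deposited raw table whose symbol is one of these names. Each gene had 1 probe, so the members were 5 of 46713 probes and 5 of 24962 gene names. All 5 passed the filter on dim probes, which kept 17844. The family was selected on earlier results of these data, in which the measured log2 change of MICB with EZH2 siRNA was among the large falls. MICB values that involve the EZH2 siRNA arrays are therefore a description, with no test.

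The study profiled the human bladder cancer line UM-UC-3 on 12 Illumina bead arrays, each carrying 1 labelled sample, 3 for each of 4 transfections. Cells were given a control precursor (control miRNA in the titles), miR-101 precursor, control siRNA or EZH2 siRNA at 50 nM and were harvested after 72 h. EZH2 is the histone H3 lysine 27 methyltransferase of Polycomb repressive complex 2, and the study asks whether miR-101 represses it. All groups are transfected, and untransfected cells were not analysed here. The triplicates are not said to be separate cultures, so the p-values below reflect array-to-array spread that may be technical. They come from limma, adjusted by Benjamini-Hochberg over all tested probes, with a threshold of 0.05.

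NKG2D ligands mark stressed, infected or transformed cells. MICA and MICB are transmembrane relatives of MHC class I heavy chains that bind neither peptide nor beta-2-microglobulin. The ULBP proteins have the same kind of distal domains without the membrane-proximal one, and ULBP1, ULBP2 and ULBP3 are held in the membrane by a lipid anchor. Proteases can shed several of these ligands, and heat shock and DNA damage responses are known to raise some of them.

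All members lie on chromosome 6 (GRCh38.p14). MICA spans chr6:31400711-31415315 and MICB chr6:31494918-31511124, with 79603 bases between them in the MHC region. ULBP2 (chr6:149942014-149949235), ULBP1 (chr6:149963943-149973715) and ULBP3 (chr6:150061053-150069121) lie in a cluster on the long arm. Their array probes are ILMN_10987 (MICA), ILMN_2469 (MICB), ILMN_1673 (ULBP1), ILMN_27661 (ULBP2) and ILMN_27663 (ULBP3).

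The mature 3p strand of miR-101 is shown because the study raised this microRNA in the cells. The sequence is from RefSeq (chr9:4850345-4850365, plus strand), with the seed, bases 2 to 8, in capitals.
hsa-miR-101-3p: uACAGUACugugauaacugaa
No transcript sequence was used here, so seed matches in the ligand RNAs were not searched.

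The 250 bases before the start given in a RefSeq promoter table are shown for MICA, MICB and ULBP2, the members that changed, read on the plus strand (GRCh38.p14). Capitals mark, on either strand, the CCAAT box (CCAAT), the GC box (GGGCGG) and a heat shock element core (GAANNTTC). The marked motifs do not overlap. For MICA and MICB these windows lie inside the gene spans given above, which begin upstream of them. The promoter table gives 1 start a gene and does not name its transcript.
MICA, chr6:31403345-31403594: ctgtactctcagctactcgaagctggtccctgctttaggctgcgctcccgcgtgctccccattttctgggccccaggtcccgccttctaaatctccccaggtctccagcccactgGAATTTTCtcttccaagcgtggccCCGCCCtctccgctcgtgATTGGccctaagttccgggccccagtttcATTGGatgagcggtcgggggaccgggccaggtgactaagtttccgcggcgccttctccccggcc
MICB, chr6:31497895-31498144: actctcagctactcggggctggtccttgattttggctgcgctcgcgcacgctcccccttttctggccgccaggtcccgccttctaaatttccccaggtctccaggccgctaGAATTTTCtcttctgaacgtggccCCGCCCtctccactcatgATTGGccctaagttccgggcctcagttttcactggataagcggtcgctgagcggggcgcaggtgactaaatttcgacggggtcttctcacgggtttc
ULBP2, chr6:149941764-149942013: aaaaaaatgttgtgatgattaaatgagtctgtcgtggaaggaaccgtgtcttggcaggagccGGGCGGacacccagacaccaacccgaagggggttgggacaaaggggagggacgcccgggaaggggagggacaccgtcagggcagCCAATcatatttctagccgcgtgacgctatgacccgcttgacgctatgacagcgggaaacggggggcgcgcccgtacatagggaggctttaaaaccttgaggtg
The MICA and MICB stretches were identical at 210 of 246 aligned bases (85.4%), while the ULBP2 stretch matched MICA at 44.8% and MICB at 46.4%. Each of the MICA and MICB windows held 1 heat shock element core, beginning 135 and 139 bases before the start, and 1 GC box. MICA held 2 CCAAT boxes and MICB 1. ULBP2 held 1 CCAAT box and 1 GC box. The element core matched nowhere in the ULBP1, ULBP2 or ULBP3 windows. Of 27305 promoter windows of this length, 33.0% held the CCAAT box, 42.3% the GC box and 5.85% the heat shock element core. These are letter matches, and whether any factor binds there in UM-UC-3 cells was not tested.

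Between 15453 and 16377 probes were detected per array (detection p under 0.05), and mean signal was 304 to 497. The arrays of the control precursor and miR-101 shared a chip, and both siRNA groups shared another. Comparisons of a treatment with its own control are therefore within a chip, and those with the other control are across chips. On each chip the controls held positions A to C and the treated arrays D to F. Position therefore cannot be told apart from treatment, nor chip from the difference between the controls. The target EZH2 had 2 probes. With EZH2 siRNA their log2 changes were -1.22 and -1.22, and with miR-101 -0.90 and -0.92 (limma adjusted p 0.000537, 0.000217, 0.000368 and 8.1e-05). Of 14 urothelial and epithelial markers, 4 were detected on all arrays (KRT8, KRT18, UPK1B, PPARG). On no array were 7 of them detected (KRT19, KRT5, KRT20, EPCAM, UPK2, UPK3A, GATA3). Of 4 mesenchymal markers, VIM and CDH2 were detected on all arrays, COL1A1 on 2 and FN1 on none. Of 12 leukocyte and natural killer markers, CD68 alone was detected on every array and 9 were detected on none, among them KLRK1, which encodes NKG2D. Its adaptor HCST was detected on 2 arrays, and the adaptor TYROBP on none.

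MICB moved in opposite directions with the treatments. It was higher in every miR-101 array than in every control array, and lower in every EZH2 siRNA array than in every control array. The share of all probes whose groups separate in this way was not computed, here or for the members below. MICB encodes a ligand that reaches the surface as a transmembrane protein. Before any correction its signal was 699, 693.4 and 611.4 on the control precursor arrays and 1512.7, 762.1 and 1110.5 on the miR-101 arrays. It was 637.1, 792 and 615.6 with control siRNA and 331.8, 317.3 and 210.4 with EZH2 siRNA. All 12 arrays detected it, and the lowest raw value with miR-101 belonged to replicate 2, the dimmest array of the series. Its raw signal of 762.1 was below the 792 of control siRNA replicate 2, whereas after normalization every miR-101 array lay above every control array. In bulk RNA, fewer cells with the transcript and less transcript per cell cannot be told apart.

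Normalized log2 intensity of MICB was 8.91, 8.90 and 8.92 with control precursor and 10.16, 9.98 and 10.20 with miR-101. The means were 8.91 ± 0.0130 and 10.12 ± 0.118 (SD, n = 3). The log2 change was 1.20 (SE 0.0610), 2.31-fold (95% interval 210% to 254% of control, limma adjusted p 6.78e-07). In this comparison 38.4% of all tested probes passed the threshold, 19.8% as higher, so passing it is common here. The size was less common: 2.51% of probes rose by more than 1 on the log2 scale. Against the control siRNA the MICB change was 1.09 (adjusted p 1.49e-06), and the controls themselves differed by 0.11 (95% interval -0.03 to 0.25, adjusted p 0.231).

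With EZH2 siRNA the normalized MICB values were 7.53, 7.54 and 7.39, against 9.01, 9.09 and 8.97 with control siRNA. The means were 7.49 ± 0.0849 and 9.02 ± 0.0609 (SD, n = 3). Of all tested probes 8.27% passed the threshold in this comparison, where MICB is given without a test. The log2 change of -1.54 (95% interval -1.67 to -1.40) left 34.5% of the control level. Against the control precursor it was -1.42 (-1.56 to -1.29), which left 37.3%. By size it stood at rank 10 from the lowest of 17844 probes against the control siRNA, where 0.28% of probes fell by more than 1. The family was selected on this fall. The intervals of MICB with EZH2 siRNA and this rank take no account of that and are not evidence for the fall. The transcript the siRNA was aimed at retained 43.0% in this comparison by either EZH2 probe. With control siRNA the EZH2 probes lay lower than MICB, at 8.28 to 8.76. Dim values are compressed by the background correction, as described below for ULBP2. The percentages of MICB and EZH2 therefore cannot be ranked. The change with EZH2 siRNA minus that with miR-101 was -2.74 (95% interval -2.94 to -2.55), given as a description.

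**Figure D1:**
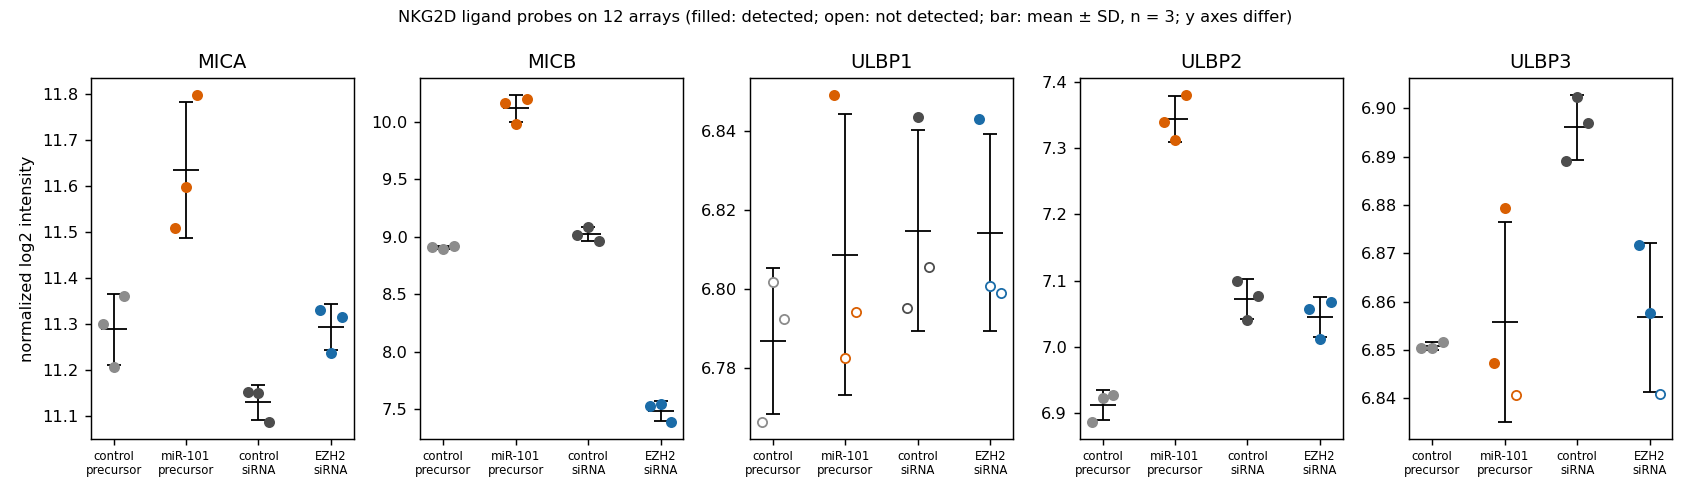
Normalized log2 intensity (y axis, a separate range per panel) of the 5 ligand probes on each array, by transfection group (x axis); filled points are detected, open points are not, and bars are mean ± SD of 3 arrays. MICB runs from 7.39 to 10.20, whereas ULBP1 and ULBP3 stay within 0.083 and 0.062 on this scale.

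The neighbouring gene MICA, whose protein shares the structure of MICB, was higher with miR-101 and did not pass the threshold with EZH2 siRNA. Its raw signal was between 2055.4 and 3533.9 on all 12 arrays. Normalized log2 values were 11.30, 11.21 and 11.36 with control precursor, and 11.51, 11.60 and 11.80 with miR-101. The miR-101 arrays lay above all control arrays. The log2 change was 0.35 (SE 0.0687, 95% interval 0.19 to 0.50, limma adjusted p 0.00295), 1.27-fold, and against the control siRNA it was 0.51 (adjusted p 0.000339).

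With EZH2 siRNA the MICA values were 11.33, 11.24 and 11.31, against 11.15, 11.15 and 11.09 with control siRNA. The EZH2 siRNA arrays lay just above their own control and among the control precursor arrays. The log2 change of 0.16 (95% interval 0.01 to 0.32) did not pass the threshold (adjusted p 0.203), and against the control precursor it was 0.01 (-0.15 to 0.16, adjusted p 0.970). The change with EZH2 siRNA minus that with miR-101 was -0.18 (95% interval -0.40 to 0.04, adjusted p 0.211). MICA and MICB are near-identical copies in places, and the probes' own sequences were not used here, so binding of either probe to the other RNA was not tested.

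ULBP2, a lipid-anchored ligand, was higher with miR-101 and differed between the controls. Its raw signal was 126.1, 125.7 and 120 with control precursor, 268.9, 176.8 and 215.9 with miR-101, 163.6, 170.5 and 161.7 with control siRNA, and 182.2, 156.1 and 142.6 with EZH2 siRNA. It was detected on all 12 arrays but lay low: the median signal of a whole array was 80.4 to 100.1. Normalized log2 means were 6.91 ± 0.0226 with control precursor and 7.34 ± 0.0344 with miR-101 (SD, n = 3), without overlap. The log2 change was 0.43 (SE 0.0249, 95% interval 0.38 to 0.49, limma adjusted p 1.4e-06), and against the control siRNA 0.27 (adjusted p 2.82e-05).

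The size of the ULBP2 change rested on how the background was taken off. The correction infers a negative control level from the detection p-values, and it gave a spread of 103 to 192 intensity units per array as an SD but only 8.53 to 10.8 as a median absolute deviation. Dim probes were therefore compressed: values with a detection p of 0.5 or more had a median log2 intensity of 6.76. With the median and median absolute deviation in their place, a setting chosen after seeing the data, ULBP2 rose by 1.61 on the log2 scale, 3.05-fold (adjusted p 9.82e-09). In the authors' processed table it rose by 0.96 (adjusted p 2.21e-08). The call held in each of these.

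ULBP2 with EZH2 siRNA was 7.05 ± 0.0298, against 7.07 ± 0.0295 with control siRNA, and the arrays overlapped. The log2 change was -0.03 (95% interval -0.08 to 0.03, adjusted p 0.635). Against the control precursor it was 0.13 (adjusted p 0.00403), close to the 0.16 by which the control siRNA itself exceeded the control precursor (adjusted p 0.00159). With arrays scaled to a common median the former missed the threshold (adjusted p 0.0615). ULBP2 responded differently to the treatments: the change with EZH2 siRNA minus that with miR-101 was -0.46 (SE 0.0352, limma adjusted p 1.8e-05). ULBP2 has close relatives in its cluster, RAET1L and RAET1G, and binding of its probe to their RNA was not tested.

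**Figure D2:**
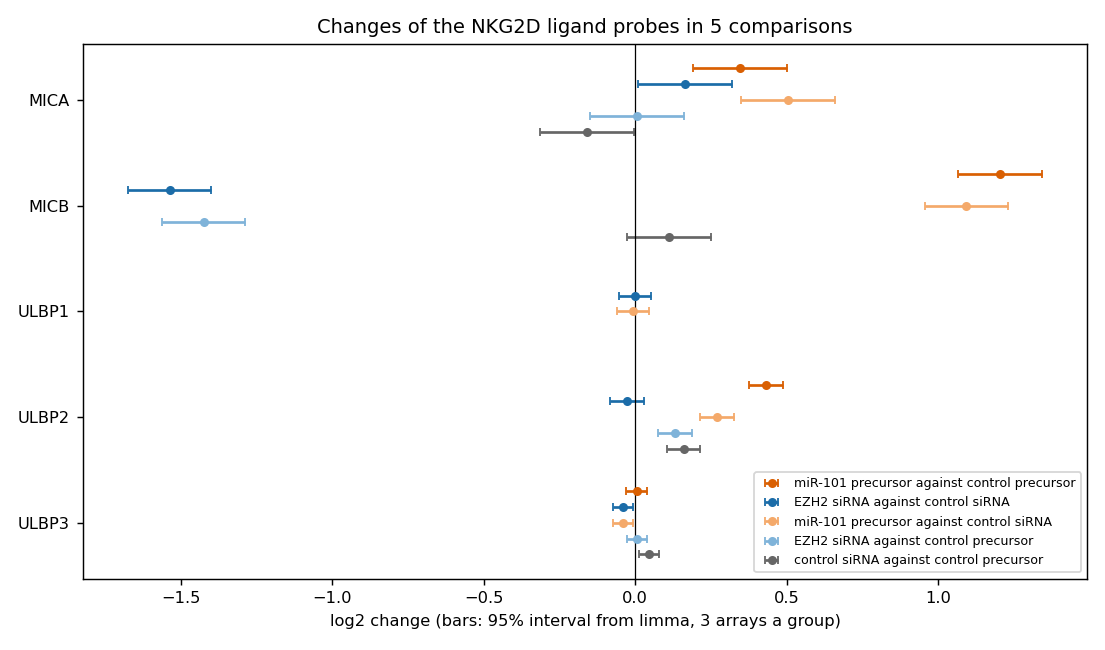
Log2 change (x axis) of each ligand probe in 5 comparisons (colours), with 95% intervals from limma. The intervals of MICB with EZH2 siRNA take no account of the selection of the family on that fall. MICB lies at 1.20 and 1.09 with miR-101 and at -1.54 and -1.42 with EZH2 siRNA, and ULBP1 is not drawn against the control precursor, where it was not above background.

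ULBP1 and ULBP3, also lipid-anchored ligands, were at or near background. ULBP1 was detected on 3 of 12 arrays, replicate 1 of miR-101 and of EZH2 siRNA and replicate 2 of control siRNA, and on none of the control precursor arrays. Its raw signal ran from 77.6 to 108.1. No change against the control precursor is read here, since ULBP1 was not above background there. With EZH2 siRNA against control siRNA its log2 change was -0.00 (95% interval -0.05 to 0.05, adjusted p 0.995).

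ULBP3 was detected on 10 of 12 arrays, with raw signals of 90.1 to 125.8; the exceptions were replicate 3 of miR-101 and of EZH2 siRNA. The 3 control siRNA arrays (6.89, 6.90 and 6.90) lay above every other array. The log2 change with EZH2 siRNA was -0.04 (95% interval -0.07 to -0.01, adjusted p 0.159), and with miR-101 against its own control 0.01 (-0.03 to 0.04, adjusted p 0.839). The controls differed by 0.05 (adjusted p 0.0563). With the median and median absolute deviation as background that difference was 0.42 (adjusted p 0.0158), and ULBP3 with miR-101 against the control siRNA was then -0.37 (adjusted p 0.0198), in place of -0.04 (adjusted p 0.0633). With EZH2 siRNA it was -0.36 and still missed the threshold (adjusted p 0.0746).

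**Figure D3:**
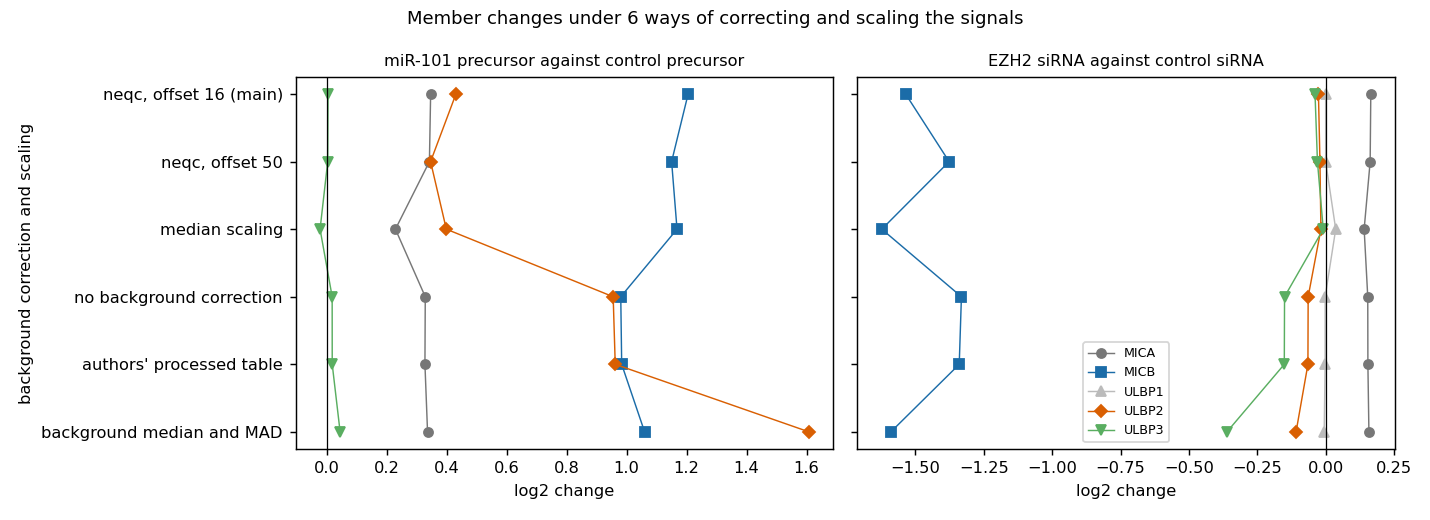
Log2 change (x axis) of each ligand under 6 ways of background correction and scaling (y axis), for miR-101 on the left and EZH2 siRNA on the right, each against its own control. ULBP1 is not drawn against the control precursor. ULBP2 with miR-101 lies between 0.35 and 1.61, and MICB with EZH2 siRNA stays between -1.62 and -1.33.

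Counted over the family, 3 of 5 members passed the threshold with miR-101 against its own control, all higher. Of all probes 38.4% passed there, 19.8% as higher and 18.6% as lower. Against the control siRNA 3 of 5 passed, all higher, where 36.2% of probes passed (19.1% higher, 17.1% lower). ULBP3, as lower, joined them with no filter on dim probes, with array weights, without miR-101 replicate 2 and with the median and median absolute deviation as background (adjusted p 0.0428, 0.0178, 0.0251 and 0.0198). The family was selected on MICB with EZH2 siRNA, so in the comparisons with those arrays MICB is left out of the count of tests. MICA, ULBP1, ULBP2 and ULBP3 missed the threshold with EZH2 siRNA against control siRNA, where 8.27% of probes passed (4.42% higher, 3.85% lower). Those probes were 789 higher among 1476, and 349 higher among 809 with arrays scaled to a common median. With EZH2 siRNA against the control precursor ULBP2 passed, as higher, where 24% of probes passed (12.3% higher, 11.7% lower). Between the controls 1 of 5 passed, ULBP2, higher in control siRNA, where 23.6% of probes passed (11.5% higher, 12% lower). For the difference of the responses ULBP2 passed, as lower, where 28.3% of probes did (13.8% higher, 14.5% lower). The comparisons with miR-101 share their treated arrays, as do those with EZH2 siRNA.

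The family also holds RAET1E, RAET1G and RAET1L, lipid-anchored or transmembrane relatives of the ULBP proteins encoded in the same cluster. RAET1G was detected on no array, and RAET1E on 2 of the EZH2 siRNA arrays and on no other. RAET1L was detected on all miR-101 and siRNA arrays and on none of the control precursor arrays. Its normalized log2 intensity was 6.825 to 6.835 on the control precursor arrays and 6.879 to 6.904 with miR-101, and no change is given against a group not above background. With EZH2 siRNA against control siRNA its log2 change was -0.00 (limma adjusted p 0.964).

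Of the neighbouring genes named here, none passed the threshold with EZH2 siRNA, where 8.27% of all probes passed. Beside the MICA-MICB pair, the antigen-presenting genes HLA-B (0.96, adjusted p 0.000119) and HLA-C (0.56, adjusted p 0.00287) rose with miR-101, and the RNA helicase gene DDX39B fell by 0.60 on the log2 scale (adjusted p 0.000152). With EZH2 siRNA HLA-B was at 0.00, HLA-C at 0.20 and DDX39B at -0.16 (limma adjusted p 0.995, 0.358 and 0.234). LRP11, beside the ULBP cluster, rose by 0.42 with miR-101 (adjusted p 0.0133) and was at -0.00 with EZH2 siRNA (adjusted p 0.996). POU5F1 (-0.01) and ATP6V1G2 (-0.03), beside the MICA-MICB pair, missed the threshold with miR-101 (limma adjusted p 0.603 and 0.184). Of all probes 38.4% passed there. The neighbours MCCD1, PPP1R14C, IYD and PLEKHG1 did not pass the filter on dim probes.

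Among the genes with the likest profile over the 12 arrays, by Pearson correlation with MICB among 2739 genes with a range of at least 1 log2 unit, were CEBPB (0.985), OSBP (0.975), TGFBR2 (0.974), ATP2B4 (0.971) and KDELR3 (0.967). CEBPB encodes a transcription factor, OSBP an oxysterol binding protein, TGFBR2 a TGF-beta receptor, ATP2B4 a calcium pump of the plasma membrane and KDELR3 a retrieval receptor for endoplasmic reticulum proteins. The 12 arrays form 4 groups, so the correlations mostly reflect 4 group means and are given as a description. Mean log2 intensity of ATP2B4 was 8.85 with control precursor, 10.08 with miR-101, 9.31 with control siRNA and 7.85 with EZH2 siRNA. KDELR3 had changes of 1.37 with miR-101 and -1.44 with EZH2 siRNA, each against its own control. In all 9 probes, MICB included, rose by at least 1 with miR-101 and fell by at least 1 with EZH2 siRNA. They were for FSTL1, RCAN1 (2 probes), KDELR3, MICB, MMP1, ATP2B4, PKIA and GFPT2, a set picked after its values were seen. The other 4 members had no such profile search: MICA, ULBP1, ULBP2 and ULBP3 ranged over less than 1 log2 unit.

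**Figure D4:**
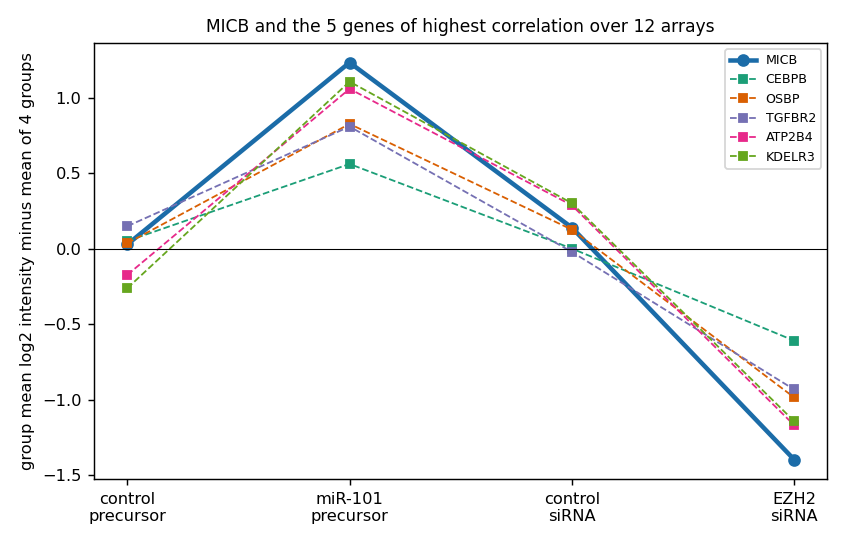
Group means of log2 intensity minus the mean of the 4 groups (y axis) for MICB and the 5 genes with the highest correlation, by transfection group (x axis). All 6 lines are highest with miR-101 and lowest with EZH2 siRNA.

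Other surface ligands of natural killer cell receptors were counted beside the members. Their list also held B2M and the receptor genes FAS, TNFRSF10A and TNFRSF10B, which are not such ligands. Of these, FAS (0.07) and B2M (0.45) are among the genes counted as higher with miR-101 below. Of the 15 genes of this list that were tested, 8 rose and 1 fell with miR-101, where 19.8% of all probes rose and 18.6% fell. The median log2 change was 0.42, against -0.00 over all probes. HLA-E, ligand of the inhibitory receptor NKG2A, rose by 1.15 (adjusted p 0.000114), HLA-B by 0.96 and NECTIN2, a ligand of DNAM-1, by 1.07 (adjusted p 0.000283). NCR3LG1, a ligand of NKp30, fell by 2.20 on the log2 scale (adjusted p 2.47e-07). Against the control siRNA 7 rose and 1 fell, where 19.1% of probes rose and 17.1% fell. HLA-E (1.19) and HLA-B (0.93) kept their size there, and NECTIN2 (0.45) and NCR3LG1 (-0.36) were smaller. The controls differed in NCR3LG1 by -1.84 (adjusted p 2.32e-06). ICAM1, CD48 and CD274 were detected on no array.

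With EZH2 siRNA 2 of the 15 rose and 2 fell, where 4.42% of probes rose and 3.85% fell, with a median of 0.15. B2M, the light chain of MHC class I, rose by 0.38 (adjusted p 0.0101) and NCR3LG1 by 0.44 (adjusted p 0.0182). The DNAM-1 ligand gene PVR fell by 0.72 on the log2 scale (adjusted p 0.0434), and the TRAIL receptor gene TNFRSF10A by 0.52 (adjusted p 0.0477). Against the control precursor NCR3LG1 turned to -1.40 (adjusted p 1e-05), B2M (0.17) and PVR (-0.55) missed the threshold (adjusted p 0.119 and 0.0579), and TNFRSF10A stood at -1.52. CLEC2D, ligand of the receptor NKR-P1A, was at 1.19 with EZH2 siRNA against control siRNA, with a wide interval of -0.03 to 2.40 (adjusted p 0.246).

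Of genes that act on shedding of the ligands, MMP9 had the largest change with miR-101. Of 9 tested, 2 rose and 1 fell with miR-101, where 38.4% of probes passed in either direction, with a median of 0.18. The gelatinase gene MMP9 rose by 1.35 (adjusted p 3.16e-10), the sheddase gene ADAM17 by 0.24 (adjusted p 0.00103), and the inhibitor gene TIMP3 fell by 0.07 on the log2 scale (adjusted p 0.0498). Against the control siRNA MMP9 was at 1.37, and ADAM17 and TIMP3 missed the threshold (adjusted p 0.0903 and 0.151). With EZH2 siRNA, where 8.27% of probes passed, 1 rose, the inhibitor gene TIMP2 (0.37, adjusted p 0.0194), and 2 fell, ADAM9 (-0.92, adjusted p 0.0334) and MMP9 (-0.13, adjusted p 0.00462). TIMP2 was at 0.69 against the control precursor (adjusted p 0.00025). ADAM9 was at -0.16 against the control precursor and missed the threshold (adjusted p 0.672). ADAM10, another sheddase gene, did not pass with either treatment against its own control (0.18 and -0.03, adjusted p 0.434 and 0.950). Against the other control it was at -0.50 with miR-101 and 0.65 with EZH2 siRNA (adjusted p 0.0403 and 0.0181), and the controls differed by 0.68.

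Of 15 stress, DNA damage and growth regulators reported upstream of NKG2D ligands, 2 rose and 6 fell with miR-101, where 19.8% of probes rose and 18.6% fell, with a median of -0.02. E2F2 (-1.73), E2F1 (-1.22), transcription factors of S phase entry, the checkpoint kinase gene CHEK1 (-1.43) and MYC (-0.86) fell, with adjusted p 6.26e-07, 1.74e-06, 1.64e-05 and 0.000173. Against the control siRNA E2F2 was at -1.30, CHEK1 at -1.01 and E2F1 at -0.37 (adjusted p 4.31e-06, 0.000162 and 0.00315), and MYC was at -0.21 and missed the threshold (adjusted p 0.171). With EZH2 siRNA 3 rose and 1 fell, where 4.42% of probes rose and 3.85% fell, with a median of 0.05: E2F2 (0.88), E2F1 (0.54) and STAT3 (0.39) rose and CHEK1 (-0.47) fell, with adjusted p 0.0004, 0.0022, 0.0295 and 0.0468. Against the control precursor E2F1 turned to -0.31 (adjusted p 0.0119), E2F2 was at 0.44 and CHEK1 at -0.89 (adjusted p 0.00505 and 0.000736). STAT3 was at 0.37 there (adjusted p 0.0167). With miR-101 STAT3 also rose, by 0.68 against the control precursor and 0.70 against the control siRNA (adjusted p 0.000289 and 0.000257).

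Counts of heat shock genes depended on the control. Of 8 tested, 6 rose and 0 fell with miR-101 against the control precursor, with a median of 0.58, where 19.8% of probes rose and 18.6% fell. Against the control siRNA 1 rose and 5 fell, with a median of -0.44, where 19.1% rose and 17.1% fell. Some of these falls depended on the probe read. HSP90AA1 was at -1.01 and HSPD1 at -0.55, but their other probes were at 0.28 and -0.05. HSPA8 was at -0.36, and at -0.35 by its other probe. Between the controls 6 of the 8 were higher in control siRNA and 0 lower, with a median of 0.67, where 11.5% of probes were higher and 12% lower. HSP90AA1 was at 1.57 there, and at 0.11 by its other probe. HSPA1B, an inducible HSP70 gene, was at 0.91 and 0.32 with miR-101 against the respective controls (adjusted p 7.49e-06 and 0.00487), and the co-chaperone gene DNAJB1 at 0.75 and -0.61 (adjusted p 0.00157 and 0.00557). The small heat shock protein gene HSPB1 was at 0.48 and -0.53 and HSPA1A at 0.75 and -0.01. With EZH2 siRNA against control siRNA 0 of 8 passed in limma, where 8.27% of probes passed, with a median of -0.17. There 1 had an unadjusted p under 0.05. With EZH2 siRNA against the control precursor 6 rose and 0 fell, with a median of 0.75, where 12.3% of probes rose and 11.7% fell.

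**Figure D5:**
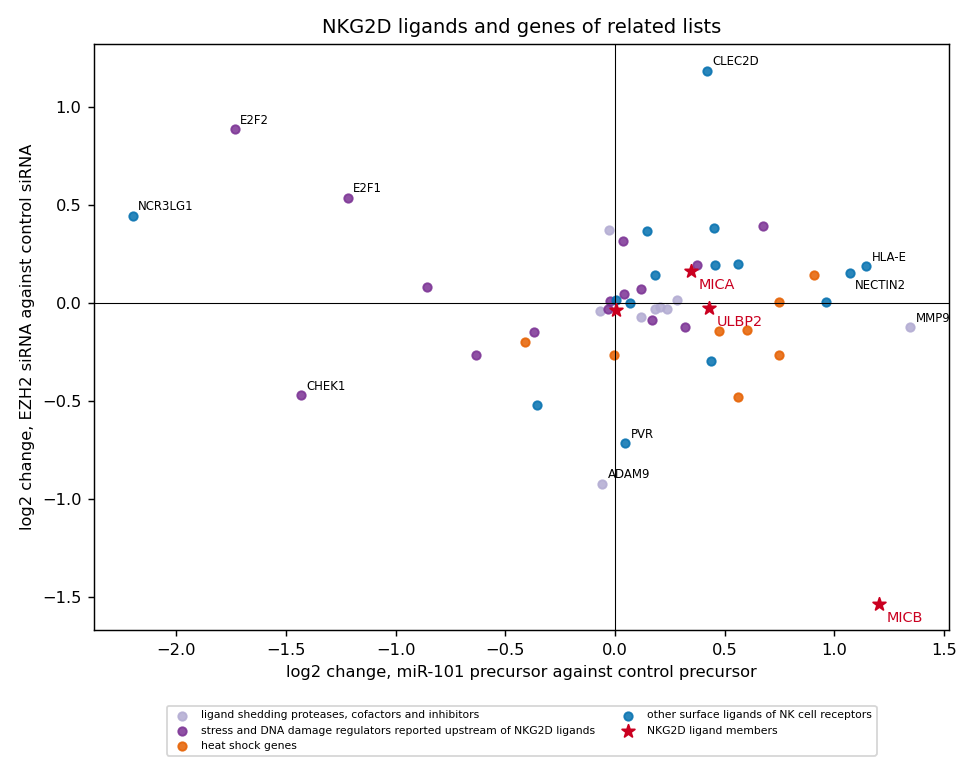
Log2 change with miR-101 (x axis) and with EZH2 siRNA (y axis), each against its own control, for the ligand members (stars) and the genes of related lists (colours), without ULBP1 and RAET1L, which were not above background in the control precursor. MICB, at 1.20 and -1.54, lies at the lower right, and MMP9 (1.35 and -0.13) and HLA-E (1.15 and 0.19) lie near the horizontal axis.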

How the data were processed

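Per the labels' protocols, total RNA was amplified and labelled for Illumina arrays. The authors deposited average bead signals as intensity values without background subtraction and detection p-values, per the file headers, and a table of normalized intensity values; BeadStudio is named in the submitters' processing notes, with no version. Columns were tied to arrays by the header lines.

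Signals were corrected, quantile-normalized and put on a log2 scale with neqc (offset 16) in limma 3.58.1 (R 4.3.3). The 17844 probes with a detection p under 0.05 on 3 or more arrays were tested in a 4-group limma model over all 12 arrays, two-sided, with Benjamini-Hochberg adjustment over all of them and a threshold of 0.05. Fold changes understate the change of dim genes. A gene in a list was read from its brightest probe. Names came from accessions and symbols of GRCh38.p14. The members, lists and tests were chosen with earlier results of these data known. The text names at most 4 genes per list and treatment, by adjusted p among those past the threshold, and the 5 genes likest each member. ADAM10 and CLEC2D, FAS, B2M and STAT3 with miR-101, and HSP90AA1, HSPA8 and HSPD1 fall outside this rule. They were chosen after their values were seen. The procedure was tested on simulated data. Alternatives covered background, scaling, filter, probe choice, weights, replicate block and each array left out. Sequences are from RefSeq.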

Additional observations from a re-analysis of the deposited data

How the results depend on the processing

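Over 23 alternatives, 636 of 679 recomputed member changes kept their direction and their side of the threshold, or, where no test was made, moved by less than the replicate spread. Many of these could not change direction. Other filters, 1 probe per gene, the replicate block and a fit of only the compared groups leave the log2 change as it was. So does leaving out an array outside the compared groups. In those only the adjusted p could move. MICA, MICB and ULBP2 stayed past the threshold with miR-101 against either control in every one, with adjusted p up to 0.0318 for MICA against the control precursor. The MICB change with EZH2 siRNA against control siRNA lay between -1.62 and -1.33. With arrays scaled to a common median, ULBP1 and ULBP3, neither of them called, turned sign in several comparisons. The ULBP1 values that involve the control precursor stand against a group not above background, and no change or direction is read from them. With miR-101 against its own control they were at -0.009557 and -0.02158, between the controls at -0.03436 and -0.006611, and for the difference of the responses at 0.0458 and 0.01221. ULBP1 turned to 0.03624 with EZH2 siRNA and to 0.0248 with miR-101 against the control siRNA, and ULBP3 to -0.01598 with EZH2 siRNA against the control precursor. Array weights put ULBP1 at 0.00686 with EZH2 siRNA and at 0.01159 with miR-101, both against the control siRNA. With EZH2 siRNA against control siRNA the probes past the threshold numbered 809 with median scaling and 2810 with array weights, in place of 1476. Leaving out each array in turn gave 835 to 1650, with 925 without control siRNA replicate 2, 835 without its replicate 3 and 922 without EZH2 siRNA replicate 1. With EZH2 siRNA against the control precursor median scaling gave 2829 in place of 4278, and ULBP2 then missed the threshold. With miR-101 against the control siRNA 4 members passed, in place of 3, with no filter, array weights, the background median and median absolute deviation, or without miR-101 replicate 2. Between the controls 2 members passed, in place of 1, with no filter on dim probes, with array weights and with the background median and median absolute deviation, and 1 to 2 when arrays were left out, the higher count without miR-101 replicate 2 or 3. Leaving out each array moved ULBP3 between -0.006788 and 0.01261 with miR-101 against its own control, and between -0.001518 and 0.01391 with EZH2 siRNA against the control precursor, where MICA ran from -0.03572 to 0.04158. ULBP1 ran from -0.01491 to 0.01395 with EZH2 siRNA and from -0.02641 to 0.008325 with miR-101, both against the control siRNA. The cause was not tested. The labels do not say whether replicate numbers pair the samples. Same-numbered arrays of a treatment and its control had correlations of -0.132 to 0.356 in their deviations from the group means. Over all pairs of groups these ran from -0.395 (the controls, replicate 1) to 0.536 (miR-101 and EZH2 siRNA, replicate 1). Arrays of different number were not compared, so the values do not settle pairing. With the replicate number as a block, 1481 probes passed with EZH2 siRNA and 6799 with miR-101, each against its own control, and no member call changed. Signal close to background limits what can be said of ULBP1 and ULBP3, and 3 arrays per group limit the precision of every value.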
